A study of Caenorhabditis elegans with 12 samples.

Results

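Ligand-gated ion channel subunit genes were followed across larvae with strong or mild knockdown of *nuo-5* and their controls. A gene was taken where its symbol began with *acr*-, *lgc*-, *glc*-, *avr*-, *glr*- or *nmr*- and a number, or was one of *unc-29*, *unc-38*, *unc-63*, *unc-49*, *lev-1*, *lev-8*, *eat-2*, *exp-1*, *gab-1*, *deg-3*, *des-2* and *mod-1*. Only probe sets with exactly 1 gene symbol were used, and the brightest one stood for the gene. This gave 105 channel genes, on 106 probe sets, of 25478 genes that could be followed by name on 29317 probe sets. Both *avr-15* and *lgc-31* were left out because their probe sets carry several annotation entries.

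Worms of the wild-type strain N2 were raised at 20 °C on bacteria that make double-stranded RNA and were collected as L3 larvae, a stage before the gonad matures. The strong *nuo-5* RNAi group consisted of the filial generation on *nuo-5* bacteria, which the study describes as arrested at this stage, and the mild *nuo-5* RNAi group of the parental generation on the same bacteria. Control larvae were fed bacteria with the empty vector pL4440. Each group has 4 biological replicates (I, III, IV and V), and each replicate is 1 Affymetrix array of whole-larva RNA. Strength of the RNAi and generation change together between the strong and mild groups and cannot be told apart. The labels do not give the generation or the age of the control larvae. Plates of the study held lutein or its solvent DMSO, and none of the labels of these 12 arrays names lutein. A further replicate was dropped by the authors before deposit. With whole larvae, fewer cells of a type and less RNA per cell cannot be told apart.

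Fast synaptic signalling runs through channels that a transmitter opens directly. Most members belong to the Cys-loop family, in which subunits form a ring around a pore that passes cations and excites the cell, or chloride and inhibits it. The *glr* and *nmr* genes encode glutamate receptors of another family, related to AMPA, kainate and NMDA receptors of vertebrates. In *C. elegans* the Cys-loop family is large and includes chloride channels gated by glutamate, acetylcholine, serotonin or tyramine. Several of these channels are targets of drugs against parasitic worms, among them levamisole, ivermectin and monepantel.

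Values are log2 brightness of a probe set after RMA, the normalization used by the authors, and are given in the order of replicates I, III, IV and V. They are compared between arrays for 1 gene at a time, and not between genes. *nuo-5*, the RNAi target, read 6.95, 7.09, 7.22 and 6.89 on the strong arrays, 7.15, 7.56, 7.25 and 7.66 on the mild arrays, and 8.29, 8.56, 8.43 and 8.42 on the control arrays. Both RNAi groups lay wholly below the controls. Strong against control, the log2 fold change of *nuo-5* was -1.39 (95% interval -1.69 to -1.09). Mild against control it was -1.02 (-1.32 to -0.72, adjusted p = 0.0471 in limma, and 0.152 with a block for the replicate number). Strong against mild it was -0.37 (-0.67 to -0.07) and did not pass (adjusted p = 0.118), and the arrays of these groups overlapped.

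Some strong arrays stood apart from the others. Genes that mark adults and oocytes were higher on strong than control arrays in 10 of 15 cases, and their median difference from the mean of the controls came to 3.28, 0.25, 3.4 and 3.31 in strong larvae, against 0.01, -0.08, -0.19 and -0.19 in mild larvae and -0.18 to 0.26 in controls. The yolk gene *vit-2* read 8.73, 3.89, 9.88 and 8.30 on the strong arrays, and between 2.89 and 3.88 on the control arrays. Adult gene expression was thus high on 3 of the 4 arrays labelled as strong L3 larvae and near the control level on strong array III. Of 20 neuron markers, 5 were higher and 0 lower in strong than control larvae, with a median log2 difference of 0.44. The neuron median was 0.03, 0.39, 0.50 and 0.93 on the strong arrays, and ranged from -0.18 to 0.25 in mild larvae and from -0.10 to 0.12 in controls. Of 18 body muscle markers, 13 were lower and 0 higher, with a median of -0.685, and their array medians were -0.51, -0.28, -0.82 and -1.23 on the strong arrays, against -0.12 to 0.07 on the control arrays. Of 10 epidermis markers, 3 were lower and 1 was higher, with a median of -0.42. Over all probe sets, 8.04% were higher and 5.62% lower in strong than control larvae. The part of these markers in the channel results below was not tested.

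**Figure D1:**
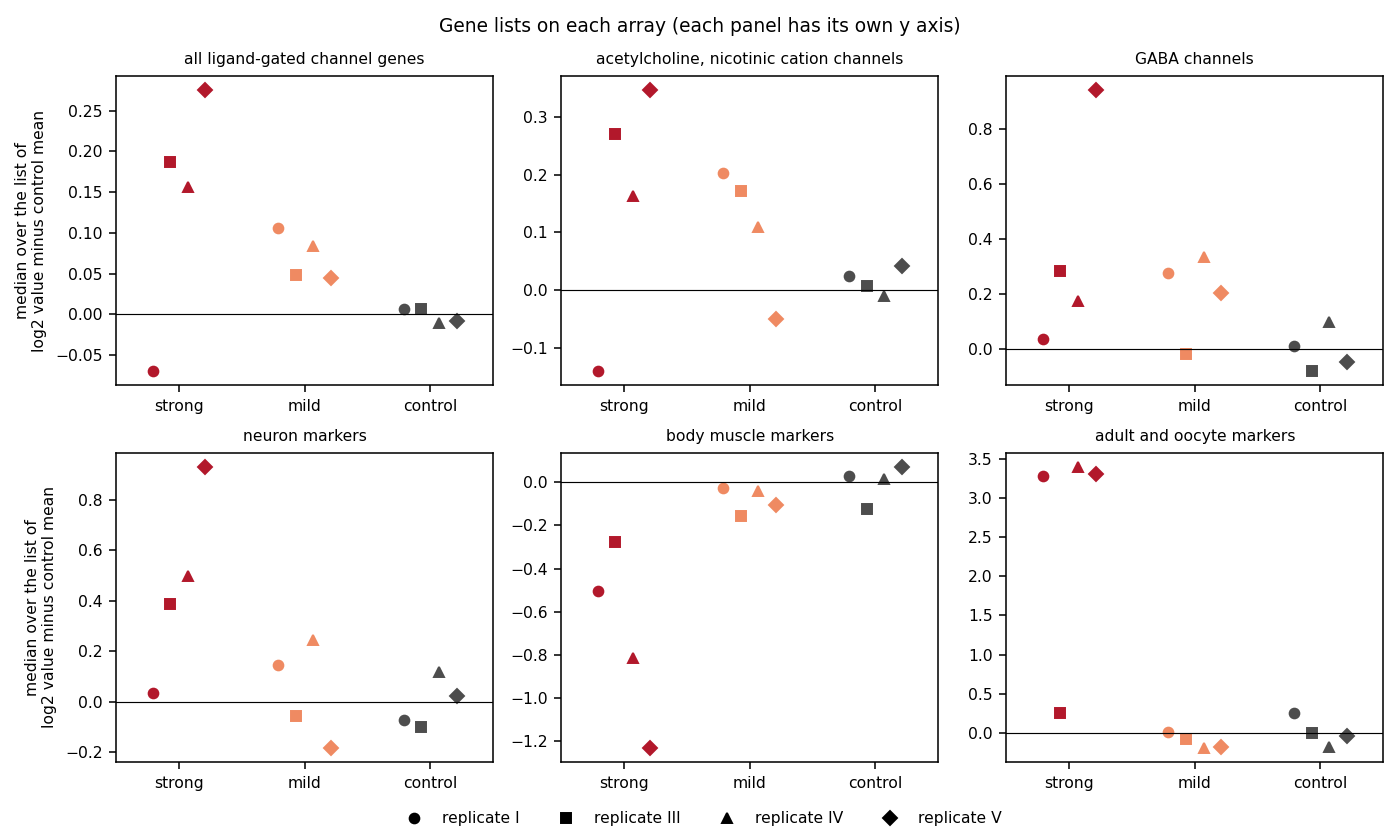
Median over a gene list of each gene's log2 value minus its control mean, per array, for strong, mild and control larvae, with a marker shape for each replicate. Strong array V has the highest median of the channel genes, 0.275, and of the neuron markers, 0.932. Strong array I has the lowest median of the channel genes, -0.0698, and strong array III lacks the rise of the adult and oocyte markers.

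Strong RNAi changed a minority of the channel genes, with more rises than falls. Compared with control larvae, 17 of the 105 genes passed an adjusted p of 0.05 in limma, 16.2% against 13.7% of all probe sets. Among them 13 were higher, 12.4% against 8.04% of all probe sets, and 4 were lower, 3.81% against 5.62%. The same shares of all probe sets stand beside the counts of each transmitter list below, and most lists hold few genes. The median log2 difference was 0.14 over the 105 genes and -0.05 over all probe sets. In 18 genes all 4 strong arrays lay above all 4 control arrays, 17.1% against 9.39% of all probe sets, and in 2 genes they all lay below, 1.90% against 8.51%. An unadjusted p under 0.05 was reached by 33 genes, 31.4% against 27.4% of all probe sets. Per array, the median difference of the 105 channels from their mean in controls was -0.07, 0.19, 0.16 and 0.275 on the strong arrays, between 0.04 and 0.11 on the mild arrays, and between -0.01 and 0.01 on the control arrays. Strong array I thus lay below all control arrays in this median, and the other 3 strong arrays above them. The count of rises depended on single arrays, with 21 genes higher without strong array I, 6 without strong array IV, 6 without strong array V and 8 without control array V. The calls of *glc-1*, *acr-12*, *lgc-4*, *acr-19*, *eat-2* and *lgc-34* against control held whichever of the 12 arrays was left out. Of the 105 genes, 28 had group means under 3.01 in all 3 groups, the level below which 40% of all values lie, and they are called dim below.

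**Figure D2:**
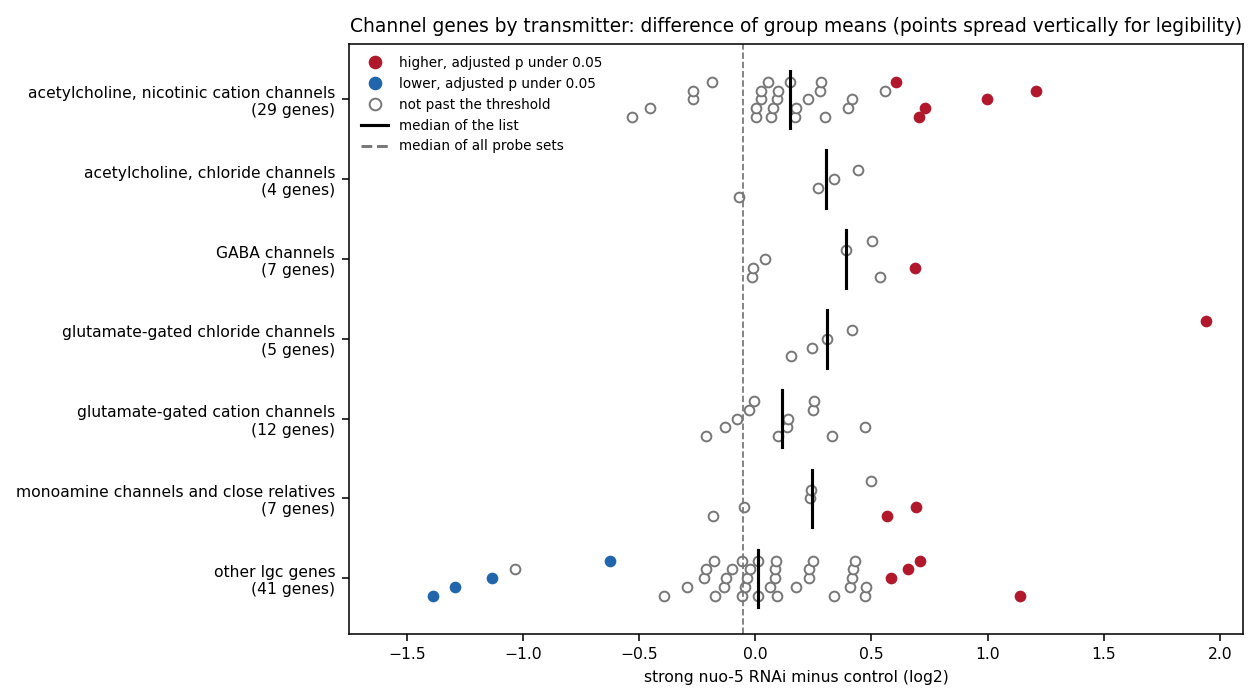
Log2 difference of group means, strong *nuo-5* RNAi minus control, for each of the 105 channel genes (points) by transmitter list, with the list median (bar) and the median of all probe sets (dashed line, -0.0532). Rises past the threshold are found in 5 of the 7 lists, and the 4 falls past the threshold are all among the other *lgc* genes.

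Acetylcholine acts through nicotinic cation channels in muscle, motor neurons and the pharynx. Of 29 nicotinic subunit genes, 5 rose with strong RNAi, 0 fell and 24 did not pass the test, with a median log2 difference of 0.15. The 5 were *acr-12*, *acr-19*, *acr-23*, *acr-18* and *eat-2*, and 3 of the 29 genes were dim in all groups.

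*acr-12* encodes a subunit of nicotinic receptors in motor neurons. Its log2 values were 4.75, 4.60, 5.17 and 5.39 on the strong arrays, 4.03, 3.75, 4.14 and 3.43 on the mild arrays, and 3.87, 3.37, 3.78 and 4.07 on the control arrays. All 4 strong arrays lay above every mild and control array. The level was 2.31-fold that of controls (log2 1.21, 95% interval 0.74 to 1.68, adjusted p = 0.00372 in limma) and 2.21-fold that of mild larvae (log2 1.14, 0.68 to 1.61, adjusted p = 0.00783). ACR-12 joins ACR-2, ACR-3, UNC-38 and UNC-63 in a receptor of cholinergic motor neurons, and the other subunit genes of that receptor did not pass the test. Their log2 differences, strong minus control, were 0.07 for *acr-2*, 0.03 for *acr-3*, 0.00 for *unc-38* and 0.15 for *unc-63*.

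*acr-19*, a relative of the nicotine-sensitive receptor subunit gene *acr-16*, had log2 values of 4.75, 4.68, 4.85 and 5.74 on the strong arrays. Mild arrays read 3.74, 4.10, 4.02 and 3.83, and control arrays 4.33, 3.87, 3.77 and 4.05. The strong arrays were above both other groups without overlap, and array V was far above the other 3. The rise was 2.00-fold over control (log2 1.00, 95% interval 0.53 to 1.47, adjusted p = 0.0103 in limma) and 2.12-fold over mild larvae (log2 1.08, 0.61 to 1.55, adjusted p = 0.0103). Without strong array V the log2 difference from control was 0.75, and the gene still passed.

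*eat-2* encodes a nicotinic subunit of pharyngeal muscle that is needed for fast pumping. It read 3.63, 3.72, 3.42 and 3.75 on the strong arrays, 3.27, 3.50, 3.30 and 3.09 on the mild arrays, and 3.08, 2.98, 3.03 and 3.0 on the control arrays. Strong arrays lay above all controls, and so did the mild arrays, by a smaller margin. The control values lay around the dim level. The strong level was 1.52-fold that of controls (log2 0.61, 95% interval 0.35 to 0.86, adjusted p = 0.0055 in limma). Strong minus mild, the log2 difference was 0.34 (0.09 to 0.59, adjusted p = 0.0872). Of 8 pharynx muscle markers 0 were higher and 1 was lower in strong than control larvae, with a median log2 difference of -0.06.

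*acr-23* encodes a betaine-gated cation channel that is the target of monepantel, and it was counted in the nicotinic list by its symbol. Strong arrays read 4.17, 4.71, 4.67 and 4.40, mild arrays 4.12, 4.49, 3.79 and 3.71, and control arrays 3.76, 3.84, 3.76 and 3.68. The strong arrays did not overlap with the controls, while mild array III lay within the strong range. Strong over control the fold was 1.66 (log2 0.73, 95% interval 0.35 to 1.11, adjusted p = 0.0165 in limma). Without strong array IV the adjusted p was 0.0542, and after a second quantile normalization it was 0.0544. *acr-18*, of the group of *deg-3*, read 4.02, 4.05, 4.35 and 4.57 on the strong arrays, 4.19, 3.56, 3.88 and 3.78 on the mild arrays, and 3.31, 3.56, 3.79 and 3.49 on the control arrays. Its strong arrays were all above the controls, and mild array I lay among them. The fold over control was 1.63 (log2 0.71, 0.34 to 1.08, adjusted p = 0.0166), and the adjusted p was 0.0509 without strong array IV and 0.0521 without strong array V.

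The levamisole receptor of body muscle, built from the products of *unc-29*, *unc-38*, *unc-63*, *lev-1* and *lev-8*, carries the excitation of the body wall together with the nicotine-sensitive receptor of *acr-16*. None of these 6 genes passed the test in any of the 3 comparisons. *unc-29*, whose product is an essential subunit, had log2 values of 4.34, 4.96, 4.69 and 5.02 on the strong arrays, 4.97, 5.20, 5.18 and 4.60 on the mild arrays, and 4.89, 5.04, 5.12 and 5.04 on the control arrays. Its groups overlapped, and strong minus control was -0.27 (95% interval -0.64 to 0.10, adjusted p = 0.351 in limma). *lev-8* read 5.98, 6.17, 6.03 and 6.45 on the strong arrays, 6.78, 6.60, 6.89 and 6.13 on the mild arrays, and 6.46, 6.39, 6.20 and 6.66 on the control arrays. The strong arrays were on the low side with overlap, and the difference from mild larvae was the larger one, -0.44 (-0.82 to -0.07, adjusted p = 0.135), against -0.27 (-0.65 to 0.11) from controls. For *unc-38* the interval of strong minus control was -0.25 to 0.26, for *unc-63* -0.29 to 0.59, for *lev-1* -0.63 to 0.26 and for *acr-16* -0.26 to 0.39. All 18 body muscle markers had a negative difference between strong and control larvae, from -1.21 to -0.355.

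**Figure D3:**
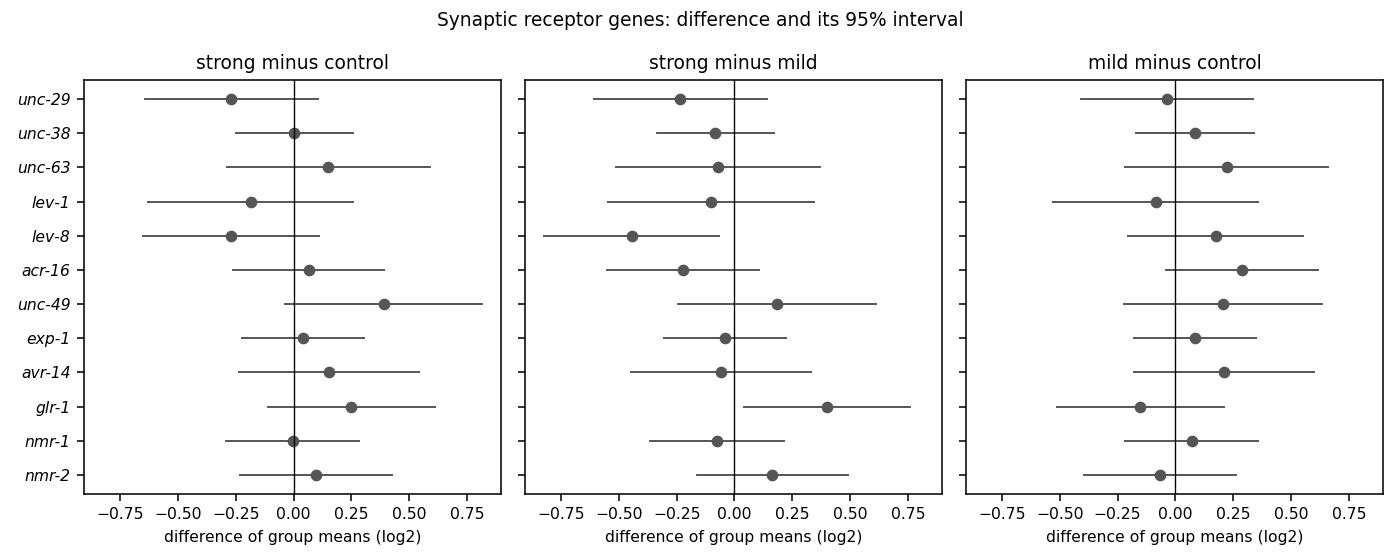
Log2 difference of group means (points) with its 95% interval (lines) for 12 synaptic receptor genes, in strong minus control, strong minus mild and mild minus control larvae. In the strong minus control panel all 12 intervals include 0, and the strong minus mild intervals of *lev-8* and *glr-1* do not, though neither gene passed after adjustment.

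Other nicotinic genes moved less. *acr-5*, a gene of B-type motor neurons, read 3.18, 3.93, 3.95 and 4.68 on the strong arrays, with array I below 3 of the 4 controls (3.64, 3.15, 3.30 and 3.43), and its log2 difference of 0.56 did not pass with all arrays (adjusted p = 0.159 in limma). Without strong array I the difference was 0.81 and passed (adjusted p = 0.0172). *acr-8* read 2.88, 3.55, 3.04 and 2.88 on the strong arrays, against 4.05, 4.13, 2.96 and 3.32 on the control arrays, a difference of -0.53 that did not pass (adjusted p = 0.195). The list of chloride channels of the acetylcholine group held the 4 genes *lgc-46* to *lgc-49*. Of these 0 passed, and their log2 differences from control ranged from -0.07 to 0.44. That list is not complete, since *lgc-40* and *lgc-39*, whose channels also respond to acetylcholine, were counted with the other *lgc* genes below. There *lgc-40* was called higher than in controls. *lgc-49* read 3.41, 3.42, 3.65 and 4.02 on the strong arrays, just above the 3.23, 3.39, 3.40 and 3.12 of the controls, with a log2 difference of 0.34 (95% interval 0.00 to 0.68, adjusted p = 0.186).

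GABA relaxes body muscle through the chloride channel of *unc-49* and excites enteric muscle through the cation channel of *exp-1*. Of 7 GABA channel genes, 1 rose under strong RNAi, *lgc-38*, and 2, *exp-1* and *lgc-36*, were dim in all groups. *lgc-38*, a relative of *unc-49*, read 3.59, 4.28, 4.00 and 4.33 on the strong arrays, 3.64, 3.34, 3.83 and 3.31 on the mild arrays, and 3.34, 3.42, 3.50 and 3.19 on the control arrays. Strong array I was just above the highest control, and the other 3 were clear of it. The level was 1.61-fold that of controls (log2 0.69, 95% interval 0.31 to 1.07, adjusted p = 0.0217 in limma). The call was lost without strong array V (adjusted p = 0.0683), without control array V (0.065) and, at the threshold itself, without control array I (0.05).

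*unc-49* read 7.66, 7.78, 7.68 and 8.44 on the strong arrays, 7.86, 7.21, 7.95 and 7.80 on the mild arrays, and 7.56, 7.35, 7.60 and 7.48 on the control arrays. Every strong array was above every control, 3 of them by a small margin. The log2 difference of 0.39 did not pass (95% interval -0.04 to 0.82, adjusted p = 0.226 in limma). *lgc-35*, a GABA-gated cation channel gene, read 3.22, 4.12, 4.26 and 4.50 on the strong arrays, against 3.44, 3.47, 3.40 and 3.65 on the control arrays. Strong array I was below all controls and the other 3 above them, and the difference of 0.54 did not pass with all arrays (adjusted p = 0.171) but did without strong array I (0.81, adjusted p = 0.0112). *gab-1*, a GABA receptor subunit gene, had a difference of 0.50 (adjusted p = 0.177), and *exp-1* one of 0.04 (-0.22 to 0.31).

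Glutamate opens inhibitory chloride channels, the targets of ivermectin, as well as excitatory receptors. Of 5 genes for glutamate-gated chloride channels 1 rose under strong RNAi and all 5 had a positive difference from control, with a median of 0.31, though that of *avr-14* was -0.00487 after a second quantile normalization.

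*glc-1*, which encodes an alpha subunit on which ivermectin acts, had the largest change of the 105 genes. It read 8.55, 7.89, 8.73 and 8.41 on the strong arrays, 6.88, 6.62, 6.67 and 5.71 on the mild arrays, and 6.72, 6.83, 6.38 and 5.89 on the control arrays. The lowest strong array stood well above the highest array of either other group, while mild and control arrays covered the same range. The level was 3.84-fold that of controls (log2 1.94, 95% interval 1.34 to 2.54, adjusted p = 0.0012 in limma) and 3.80-fold that of mild larvae (log2 1.93, 1.32 to 2.53, adjusted p = 0.00229). Mild minus control was 0.01 (-0.59 to 0.62). Over all 22 alternatives tried the log2 difference of *glc-1* from control lay between 1.75 and 2.11. Strong array III, with few adult transcripts, was the lowest strong array for this gene, at 7.89.

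*glc-2* encodes the beta subunit, found in pharyngeal muscle. Strong arrays read 5.97, 6.04, 6.08 and 6.32, mild arrays 5.53, 5.51, 5.76 and 5.24, and control arrays 5.44, 5.77, 5.99 and 5.55. The strong arrays cleared the mild group and overlapped with control array IV. The gene was called against mild larvae (1.51-fold, log2 0.59, 95% interval 0.26 to 0.92, adjusted p = 0.0282 in limma) and not against controls (log2 0.41, 0.09 to 0.74, adjusted p = 0.092). The call against mild larvae was lost when mild array I, III or V or strong array IV or V was left out, with adjusted p between 0.0561 and 0.0871, and after a second quantile normalization (0.0562). Differences from control were 0.15 for *avr-14*, an alpha subunit gene of neurons, 0.25 for *glc-3* and 0.31 for *glc-4*, and none of them passed.

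None of the 12 genes for glutamate-gated cation channels passed in any comparison, and 5 of them were dim in all groups. *glr-1*, the AMPA-type receptor of command interneurons, read 3.12, 3.46, 3.25 and 3.16 on the strong arrays, 3.26, 2.83, 2.62 and 2.67 on the mild arrays, and 2.70, 3.25, 3.14 and 2.90 on the control arrays. The 3 groups overlapped near the dim level, and strong minus control was 0.25 (95% interval -0.11 to 0.61, adjusted p = 0.374 in limma). For the NMDA-type genes the difference was 0.00 for *nmr-1*, which was dim, and 0.10 for *nmr-2*, with intervals of -0.29 to 0.28 and -0.23 to 0.43. *glr-4* had the largest difference of this list. It read 4.64, 4.93, 4.95 and 5.44 on the strong arrays, 4.48, 4.35, 4.79 and 4.74 on the mild arrays, and 4.61, 4.34, 4.58 and 4.54 on the control arrays. All strong arrays lay above all controls, and the difference of 0.47 (0.11 to 0.83) had an adjusted p of 0.0811, which was 0.0332 without strong array I.

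Monoamines gate a further set of channels. Of 7 genes in that list, 2 rose under strong RNAi, *mod-1* and *lgc-55*, and 2 were dim in all groups. The list is not complete, since *lgc-40* and *lgc-39*, whose channels also respond to monoamines, were counted with the other *lgc* genes below. *mod-1*, the serotonin-gated chloride channel, read 4.32, 4.67, 4.84 and 5.12 on the strong arrays, 4.33, 4.07, 3.93 and 4.09 on the mild arrays, and 4.24, 4.26, 3.77 and 3.91 on the control arrays. Strong array I was close to the upper control and mild arrays, and the other 3 strong arrays stood clear of them. The level was 1.62-fold that of controls (log2 0.69, 95% interval 0.31 to 1.07, adjusted p = 0.0214 in limma) and 1.55-fold that of mild larvae (log2 0.63, 0.25 to 1.01, adjusted p = 0.041). Against mild larvae a block for the replicate number gave an adjusted p of 0.0606, a fit of only the 8 arrays compared 0.0748, a second quantile normalization 0.107, centring on array medians 0.0616, an intensity trend with robust estimation 0.063 and no variance moderation 0.0744. Leaving out 8 of the 12 arrays in turn also ended this call, with adjusted p of 0.0501 to 0.12. Against controls it was 0.0611 without strong array IV, 0.0639 without strong array V, 0.0611 without control array IV and 0.0618 without control array V, 0.0587 after a second quantile normalization and 0.0515 in a fit of only the 8 arrays compared.

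*lgc-55* encodes a tyramine-gated chloride channel that acts in the escape response. It read 4.31, 4.71, 4.80 and 5.01 on the strong arrays, 4.65, 4.18, 4.53 and 4.35 on the mild arrays, and 4.13, 4.31, 4.15 and 3.97 on the control arrays. Strong array I only just cleared control array III, mild array III lay within the control range, and the other 3 mild arrays lay within the strong range. The level was 1.48-fold that of controls (log2 0.57, 95% interval 0.22 to 0.91, adjusted p = 0.0335 in limma). The call was lost with a block for the replicate number (adjusted p = 0.0546), after a second quantile normalization (0.103), in a fit of only the 8 arrays compared (0.057), with an intensity trend and robust estimation (0.0589), without variance moderation (0.0535) and when strong array IV or V or control array I, IV or V was left out (0.0664 to 0.102). *lgc-50*, a serotonin-gated cation channel, read 3.99, 4.47, 4.33 and 5.32 on the strong arrays, against 4.01, 4.18, 3.97 and 3.94 on the control arrays, and its difference of 0.50 did not pass (adjusted p = 0.16). Strong array I was within the control range and strong array V well above it. Without strong array I the difference was 0.68 and passed (adjusted p = 0.0447).

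The remaining 41 *lgc* genes have few known ligands, and 15 of them were dim in all groups. This list held 4 rises and all 4 falls of the comparison with controls, and its median difference was 0.01.

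*lgc-4* had the largest rise of this list. It read 3.81, 4.09, 4.42 and 5.26 on the strong arrays, 4.17, 3.58, 3.88 and 3.69 on the mild arrays, and 3.20, 3.21, 3.24 and 3.36 on the control arrays. The controls lay close together, and all 8 RNAi arrays were above them. The strong level was 2.21-fold that of controls (log2 1.14, 95% interval 0.60 to 1.69, adjusted p = 0.0109 in limma). Mild minus control was 0.58 (0.03 to 1.12) and did not pass after adjustment.

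*lgc-40* encodes a channel gated by serotonin, choline and acetylcholine. Strong arrays read 3.74, 3.94, 4.30 and 4.46, mild arrays 3.88, 3.37, 3.66 and 3.54, and control arrays 3.39, 3.19, 3.33 and 3.69. The lowest strong array was just above the highest control. The fold over control was 1.64 (log2 0.71, 95% interval 0.33 to 1.09, adjusted p = 0.0195 in limma), with an adjusted p of 0.0616 without strong array IV, 0.0605 without strong array V and 0.0592 without control array III. *lgc-57* read 4.19, 4.11, 4.45 and 4.75 on the strong arrays, 3.63, 3.75, 3.92 and 3.76 on the mild arrays, and 3.63, 4.01, 3.98 and 3.26 on the control arrays. All strong arrays were above both other groups, and the fold over control was 1.58 (log2 0.66, 0.25 to 1.06, adjusted p = 0.0342). *lgc-28* read 3.34, 3.45, 3.98 and 3.78 on the strong arrays, 2.86, 2.98, 3.39 and 3.11 on the mild arrays, and 2.82, 3.20, 3.04 and 3.15 on the control arrays. It rose 1.50-fold over control (log2 0.58, 0.22 to 0.95, adjusted p = 0.0355), with control values around the dim level, and a block for the replicate number brought it past the threshold against mild larvae as well (log2 0.55, adjusted p = 0.0238, against 0.0544 without the block). The calls of *lgc-57* and *lgc-28* were lost when strong array IV or V or control array I or V was left out, with adjusted p between 0.0609 and 0.106, and that of *lgc-28* also without control array III (0.0524) or IV (0.0722). In a fit of only the 8 arrays compared the adjusted p was 0.0784 for *lgc-57* and 0.0572 for *lgc-28*, and without variance moderation it was 0.0635 for *lgc-57* and 0.059 for *lgc-28*. That of *lgc-57* was also 0.0643 after a second quantile normalization and 0.0508 with an intensity trend and robust estimation.

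*lgc-39*, whose channel responds to acetylcholine and monoamines, was called against mild larvae alone. It read 5.60, 5.89, 5.91 and 6.17 on the strong arrays, 5.46, 5.51, 5.36 and 5.18 on the mild arrays, and 5.42, 5.66, 5.27 and 5.50 on the control arrays. Strong array I was just above the highest mild array and below control array III. Strong over mild the fold was 1.43 (log2 0.51, 95% interval 0.21 to 0.82, adjusted p = 0.0378 in limma), and strong minus control was 0.43 (0.12 to 0.74, adjusted p = 0.0628). Without strong array I the difference from control was 0.53 and passed (adjusted p = 0.0268). Leaving out 1 array ended the call against mild larvae for 9 of the 12 arrays, with adjusted p between 0.0511 and 0.112. A fit of only the 8 arrays compared, a second quantile normalization, centring on array medians, an intensity trend with robust estimation and no variance moderation ended it too (0.0528 to 0.0803).

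The 4 falls shared a pattern over the strong arrays, with array III highest and array V lowest in each gene. *lgc-22* read 8.37, 8.94, 7.98 and 6.91 on the strong arrays, 9.02, 9.80, 9.60 and 8.94 on the mild arrays, and 9.0, 9.79, 9.91 and 9.04 on the control arrays. Strong array III came close to the lowest arrays of both other groups, and strong array V was far below them. The strong level was 38.3% of that of controls (log2 -1.39, 95% interval -2.21 to -0.56, adjusted p = 0.0301 in limma) and 40.9% of that of mild larvae (log2 -1.29, -2.12 to -0.47, adjusted p = 0.0499). Without strong array V the log2 difference from control was -1.01 (adjusted p = 0.0673), without strong array IV -1.36 (0.0724), without control array III -1.27 (0.0817) and without control array IV -1.23 (0.083). Against mild larvae the call held only where strong array III was the array left out, and the adjusted p was 0.0552 to 0.133 without each of the other 11.

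*lgc-27* read 5.38, 6.29, 5.14 and 4.05 on the strong arrays, 6.35, 6.60, 6.61 and 6.45 on the mild arrays, and 6.12, 6.54, 7.03 and 6.36 on the control arrays. Strong array III lay above control array I, so that these groups overlapped. The strong level was 40.8% of controls (log2 -1.29, 95% interval -2.07 to -0.52, adjusted p = 0.0315 in limma) and 41.0% of mild larvae (log2 -1.29, -2.06 to -0.51, adjusted p = 0.0405). Against controls the call was lost when strong array IV or V or control array III, IV or V was left out, with adjusted p between 0.058 and 0.0878, and the log2 difference was -0.91 without strong array V. Against mild larvae it was lost for 10 of the 12 arrays left out, with adjusted p of 0.05 to 0.0972.

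*lgc-34* read 6.94, 7.54, 6.54 and 5.84 on the strong arrays, 7.96, 7.68, 7.81 and 7.95 on the mild arrays, and 7.98, 7.78, 7.75 and 7.87 on the control arrays. Mild and control arrays lay close together, and every strong array was below them. The strong level was 45.6% of controls (log2 -1.13, 95% interval -1.71 to -0.55, adjusted p = 0.0151 in limma) and 45.5% of mild larvae (log2 -1.13, -1.72 to -0.55, adjusted p = 0.02). Against mild larvae the call was lost without strong array IV (0.0607) or mild array V (0.0572).

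*lgc-45* was measured by 2 probe sets. The brighter, 18489887, read 6.11, 6.49, 6.31 and 5.60 on the strong arrays, 6.77, 6.54, 6.52 and 6.39 on the mild arrays, and 7.03, 6.48, 6.83 and 6.68 on the control arrays. Strong array III matched control array III, and the other 3 strong arrays lay below all controls. The strong level was 64.8% of controls (log2 -0.63, 95% interval -1.03 to -0.22, adjusted p = 0.0428 in limma). The other probe set, 18489881, stood at 69.8% and did not pass (adjusted p = 0.244), nor did the mean of both (0.0868). Leaving out 1 array ended the call for 9 of the 12 arrays (0.0516 to 0.111). In a fit of only the 8 arrays compared and without variance moderation, *lgc-22*, *lgc-27* and *lgc-45* no longer passed against controls (adjusted p = 0.0625 to 0.0863), nor *lgc-22*, *lgc-27* and *lgc-34* against mild larvae (0.0578 to 0.115).

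*lgc-21* did not pass, though its difference from control was larger than that of *lgc-45*. It read 7.59, 7.67, 6.33 and 5.78 on the strong arrays, 8.10, 7.57, 7.44 and 7.92 on the mild arrays, and 7.81, 7.55, 8.25 and 7.90 on the control arrays. Strong arrays I and III were near the controls, and IV and V well below them. The difference was -1.03 (95% interval -1.83 to -0.24, adjusted p = 0.0824 in limma), and it passed without strong array I (-1.28, adjusted p = 0.0364) or without strong array III (-1.31, adjusted p = 0.0241). Beside these values, the body muscle medians were also highest on strong array III, at -0.28, and lowest on strong array V, at -1.23. The medians of the epidermis markers were highest on strong array III as well, at -0.13, but lowest on strong array I, at -0.57. The part of either tissue in these falls was not tested. Without strong array III 6 channel genes were lower than in controls, and without strong array V 1 was.

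**Figure D4:**
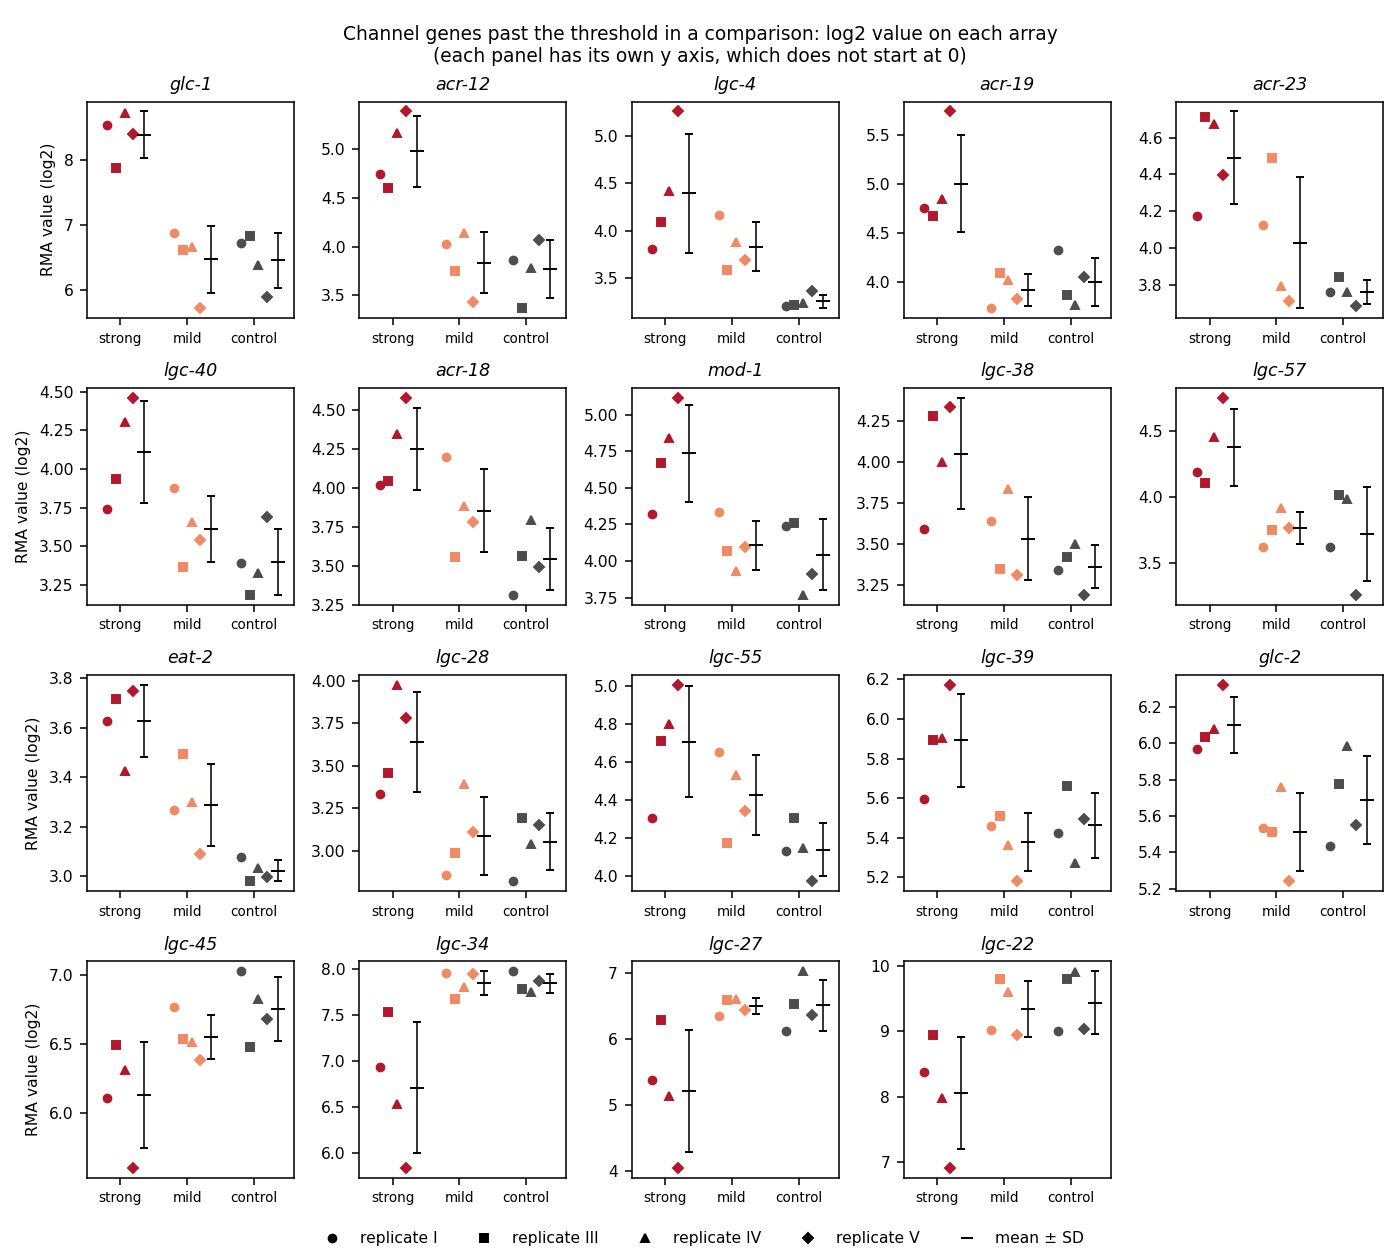
Log2 value on each array (a marker shape for each replicate), with the mean ± SD of 4 arrays (bars), for the 19 channel genes that passed the threshold in a comparison, strong, mild and control from left to right. In the 15 genes of the first 3 rows the strong mean is the highest, and in the 4 genes of the bottom row strong array V is the lowest of all 12 arrays.

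Strong and mild larvae differed in fewer channel genes. Of the 105 genes 9 passed, 8.57% against 10.2% of all probe sets. *glc-1*, *acr-12*, *acr-19*, *mod-1*, *glc-2* and *lgc-39* were higher in strong larvae, 5.71% against 5.82%, and *lgc-22*, *lgc-27* and *lgc-34* lower, 2.86% against 4.34%. In 7 genes all strong arrays lay above all mild arrays, 6.67% against 6.98%, and in 3 below, 2.86% against 7.15%, and 27 genes had an unadjusted p under 0.05, 25.7% against 23.9%. The median difference was 0.04 over the channel genes and -0.04 over all probe sets. The other 10 genes called against controls had strong minus mild differences of 0.28 to 0.61 for the 9 rises and of -0.42 for *lgc-45*, and none of them passed.

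Mild RNAi left no channel gene past the threshold. Against controls 0 of 105 genes passed, where 5 of all 29317 probe sets did, 0.0171% (0.0136% higher and 0.00341% lower). Of the channel genes 7 genes had an unadjusted p under 0.05, 6.67% against 3.34% of all probe sets. In 6 genes all 4 mild arrays lay above all controls, 5.71% against 1.38%, and in 2 below, 1.90% against 1.08%. The median difference was 0.05 over the channel genes and 0.00 over all probe sets, and single genes ranged from -0.37 to 0.58. The largest positive differences were those of *lgc-4*, given above, and *lgc-42*. *lgc-42* read 3.86, 3.51, 3.67 and 3.57 on the mild arrays, against 3.06, 3.13, 2.59 and 3.61 on the control arrays, with a difference of 0.56 (95% interval 0.10 to 1.01) that did not pass after adjustment. Control array V lay within the mild range. *acr-20*, another nicotinic subunit gene, read 3.91, 3.78, 3.68 and 3.72 on the mild arrays and 3.56, 3.46, 3.37 and 3.43 on the control arrays, a difference of 0.32 (0.01 to 0.62) without overlap, and on the strong arrays it read 3.57, 3.87, 3.73 and 4.26.

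Genes that serve these channels were counted from lists of the same pathway. Of 19 measured genes for receptor assembly, clustering and auxiliary proteins, 1 rose and 4 fell with strong RNAi, both against control and against mild larvae. Over all probe sets, 8.04% were higher and 5.62% lower against control, and 5.82% and 4.34% against mild larvae. *madd-4*, whose secreted product gathers acetylcholine and GABA receptors at neuromuscular junctions, read 5.83, 6.29, 5.82 and 6.04 on the strong arrays, 5.55, 5.15, 5.42 and 5.19 on the mild arrays, and 5.61, 5.41, 5.08 and 5.42 on the control arrays. The strong arrays cleared both other groups, and the difference from control was 0.61 (95% interval 0.28 to 0.95, adjusted p = 0.02 in limma). *nra-2*, which controls which nicotinic subunits leave the endoplasmic reticulum, read 8.05, 8.48, 8.23 and 7.77 on the strong arrays, 9.15, 9.33, 8.68 and 8.78 on the mild arrays, and 9.29, 9.38, 8.76 and 9.02 on the control arrays. It lay lower on all strong arrays, by -0.98 against control (-1.41 to -0.55, adjusted p = 0.00694).

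The other falls of this list were *rsu-1*, a Ras suppressor homologue that takes part in placing acetylcholine receptors in muscle (-0.80, adjusted p = 0.00577 in limma), *cni-1*, a cornichon of glutamate receptor transport (-0.49, adjusted p = 0.011), and *crld-1*, which promotes assembly of the levamisole receptor (-0.49, adjusted p = 0.0107). *crld-1* read 7.60, 7.54, 7.37 and 7.32 on the strong arrays, 8.12, 8.05, 7.98 and 7.87 on the mild arrays, and 8.0, 8.02, 7.90 and 7.87 on the control arrays, with no overlap between strong larvae and either group. Among 24 measured genes of transmitter synthesis, transport and clearance 1 passed. *cha-1* and *unc-17* of that list had no probe set with exactly 1 gene symbol and were not measured, so part of the acetylcholine supply is not covered. *tbh-1*, which makes octopamine from tyramine, read 5.10, 3.59, 6.16 and 5.22 on the strong arrays, 2.92, 2.89, 3.0 and 3.33 on the mild arrays, and 3.01, 3.12, 2.83 and 3.23 on the control arrays. Its difference from control was 1.97 (1.13 to 2.81, adjusted p = 0.00626), and strong array III, the array with few adult transcripts, was far below the other 3. Of 5 measured Cys-loop channel genes with other symbols, 0 passed.

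Several members lie side by side in the genome. By gene order in the reference annotation, 23 of the 105 genes formed 10 runs of neighbouring members. In strong against control larvae 0 of the 23 passed, against 16.2% of the 105 genes and 13.7% of all probe sets. With so few genes, many of them dim, this count says little about neighbours. *deg-3* and *des-2*, which are transcribed as 1 operon and form a choline-sensitive receptor, had differences of 0.42 and 0.28, and *acr-2* and *acr-3*, also an operon, of 0.07 and 0.03. The longest run, *lgc-13* to *lgc-17*, held 5 genes that were dim in all groups. Also dim in all groups were *lgc-5* and *lgc-6*, *lgc-7* and *lgc-8*, *lgc-23* and *lgc-24*, and *lgc-29* beside *lgc-1*.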

How the data were processed

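Expression in whole L3 larvae was read from 12 Gene ST arrays of Affymetrix for *C. elegans*, whose version differs between the methods and the labels. The deposited log2 values come from RMA as run by the authors (background correction, quantile normalization and 1 value per probe set), and the background step could not be redone from these values. The table holds 29317 probe sets and 0 missing values, with array medians of 3.41 to 3.57. Precision is limited by how many arrays there are. Of the probe sets, 25546 carry 1 gene symbol, 646 several entries and 3125 none. All 105 channel genes matched a WBcel235 RefSeq gene by identifier, used for gene order.

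Groups were compared in R 4.3.3 with limma 3.58.1 in 1 fit of 3 group means over 12 arrays, with p-values adjusted over all probe sets by Benjamini-Hochberg, a threshold of 0.05, and 95% intervals from the moderated standard error (9 residual and 3.51 prior degrees of freedom). The fit was tested on simulated data. Named genes are every channel gene that passed, a fixed set of synaptic receptors (*unc-29*, *unc-38*, *unc-63*, *lev-1*, *lev-8*, *acr-16*, *unc-49*, *exp-1*, *eat-2*, *avr-14*, *glr-1*, *nmr-1*, *nmr-2*, *mod-1*), up to 2 genes per transmitter list with the largest change that did not pass, and the pathway genes that passed. The other genes printed for mild RNAi, receptor partners and operons, and the marker gene *vit-2*, were chosen after their values were seen. Members and lists were chosen with earlier results of these data known.

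Alternatives tried were a block for the replicate number, only the 8 arrays compared, a second quantile normalization, centring on array medians, a filter on dim probe sets (above 3.01 on at least 4 arrays), robust estimation with an intensity trend, no moderation of the variance, an adjusted p under 0.01, a log2 fold change of at least 1, the mean over the probe sets of a gene, and dropping each array in turn. Deviations from the group means correlated between same-numbered mild and control arrays at 0.34, 0.25, 0.27 and 0.20. These correlations were 0.31, 6.78e-05, 0.08 and 0.12 for strong and control arrays, and 0.23, 0.12, 0.04 and 0.04 for strong and mild arrays. Correlations between arrays with different numbers were not computed for comparison, so whether the numbers pair arrays is not settled. The main fit left the numbers out, and the block took them in. Figures used pandas 2.3.3 and matplotlib 3.10.9 in Python 3.11.15.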

Additional observations from a re-analysis of the deposited data

Results flagged for a closer look

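A single array lay far from the other 3 of its group in 2 of 135 combinations of 45 named genes and 3 groups, by Dixon's ratio of the gap to the range. Chance alone flags about 1 in 20 groups. Both cases were strong array V. *acr-19*, a nicotinic subunit gene, read 5.74 there and 4.68 to 4.85 on the other strong arrays (ratio 0.839). *unc-49*, the GABA receptor gene of body muscle, read 8.44 there and 7.66 to 7.78 on the other strong arrays (ratio 0.837). The median of the 20 neuron markers was also highest on strong array V, at 0.932, and that of the body muscle markers lowest, at -1.23. Their part in these values was not tested.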

How the results depend on the processing

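No called difference of a named gene changed sign under the alternatives. The differences of *acr-16*, *avr-14*, *exp-1*, *nmr-1*, *nmr-2*, *unc-38* and *unc-63* from control, none of them called, did so, within -0.12 to 0.325. In strong against control larvae the 13 higher and 4 lower channel genes became 3 and 0 at an adjusted p under 0.01. A log2 fold change of at least 1 left 3 higher. Only 1 gene was lower in a fit of the 8 arrays compared, and 1 without variance moderation. Leaving out 1 array gave 6 to 21 higher genes and 1 to 6 lower ones. In strong against mild larvae the 6 higher and 3 lower genes became 2 and 0 at an adjusted p under 0.01. A log2 fold change of at least 1 left 3 higher, and a second quantile normalization 3 higher. In a fit of the 8 arrays compared 0 were lower, and 0 without variance moderation. Leaving out 1 array gave 3 to 11 higher and 0 to 4 lower genes. With the replicate number as a block, 12 genes were higher and 4 lower against control, and 6 higher and 3 lower against mild larvae. Beside *lgc-55*, *mod-1* and *lgc-28*, where it is given above, the block changed no other call of a channel gene. Mild against control larvae gave 0 calls under every alternative. Over the named genes in strong against control larvae, and in strong against mild larvae where they were called, calls were lost 165 times and gained 7 times. The search of promoters for motifs was not run, since no promoter sequence was used here. For the dim genes, signal over background limits what a difference can show.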
